A study of Homo sapiens with 10 samples.

Results

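H3K27ac, the acetylation of lysine 27 of histone H3 found at active promoters and enhancers, was measured by ChIP-seq. All cells were of the H1975 line, which is derived from a human lung adenocarcinoma and carries a mutant EGFR. The genes described are 9 members of the Notch pathway: the receptors NOTCH1, NOTCH2 and NOTCH3, the ligands JAG1 and JAG2, and the targets HES1, HES4, HEY1 and NRARP. Their regions were all rows of the annotated count table that carried one of these gene symbols, which gave 26 of 67387 annotated regions, each 502 bp wide. HES1 had 10 of them, NOTCH1 and NRARP had 4 each, NOTCH2, HES4 and JAG1 had 2 each, NOTCH3 and HEY1 had 1 each, and JAG2 had none. All 26 passed the filter on low counts.

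The 9 H3K27ac libraries formed 3 groups of 3 that the labels call biological triplicates. DMSO cells had 21 drug-free days followed by 3 days in DMSO. The osimertinib DTP group (DTP in the following, for drug-tolerant persister) held the cells that remained after 24 days in the EGFR inhibitor osimertinib at 500 nM. The osimertinib DTP + AZD5153 group (DTP + AZD5153) had 21 days of osimertinib at that dose, and its last 3 days were in 150 nM AZD5153, an inhibitor of the BET proteins that bind acetylated histones. The labels do not say whether osimertinib was continued in those days. A single pooled input library served all groups. All values therefore come from 1 cell line, and drug-treated cells that survived were compared with cells that had never met the drug.

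Total counts lay between 6263443 and 10463351 per library. Among counts in annotated regions, replicate 2 of DTP had 59.8% and replicate 3 of DTP + AZD5153 had 66.7% in promoters within 1 kb of a start site, against 40.3% to 45.9% in the other 7 libraries. Replicate 3 of DTP + AZD5153 also had the lowest total and Spearman correlations of 0.354 and 0.43 with the other libraries of its group. Both libraries were kept, and values that leave them out are given where they change a called result or the direction of a named region. Markers of the labelled cell type were read from the strongest promoter region of each gene, in CPM (counts scaled to library size with edgeR's TMM factors), beside a median of 11.9 CPM over all promoter regions. Of 6 epithelial genes, KRT8, KRT7, EPCAM, KRT19 and CDH1 lay above that median, from 70.6 down to 15.9 CPM, and KRT18 lay at 11.5 CPM. Of the lung genes, NKX2-1 (21.8 CPM) and NAPSA (16.4 CPM) lay above it, and SFTPB (4.61 CPM) and FOXA2 (4.17 CPM) below it. PTPRC and CD3E, which mark leukocytes, and the hepatocyte genes ALB and APOB had no annotated region, and CD14, a monocyte marker, had 5.07 CPM. The markers did not all follow the label, since PDGFRB and COL1A1, known from fibroblasts, and CDH5, known from endothelium, lay at 17.4, 17 and 17.1 CPM, while COL1A2 lay at 7.44 CPM and PECAM1 had no promoter region.

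In Notch signalling a ligand such as JAG1 or JAG2 on one cell binds a NOTCH receptor on its neighbour, the receptor is cut by ADAM proteases and then by gamma-secretase, and its freed intracellular domain enters the nucleus. There it joins the DNA-binding protein RBPJ and coactivators of the MAML family, and the complex turns on targets that include the HES and HEY repressors and NRARP, which in turn dampens the signal. In lung tissue the pathway is known for its part in the choice between secretory, ciliated and neuroendocrine cell fates. H3K27ac reports the state of the chromatin and not the amount of RNA or protein, and each region was given to a gene by its nearest start site. In bulk chromatin, a smaller share of cells with the mark and a weaker mark in each cell cannot be told apart.

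To show where the nuclear complex could meet the members, their promoter sequences were taken from RefSeq (build GRCh38.p14), from 250 bases before to 50 bases after the gene start. A sequence was used for 8 of the 9 members, all but HEY1. The letters searched for on both strands were GTGGGAA for RBPJ, TGANTCA for AP-1, GGAATG for TEAD and CCGGAAG for ETS factors. The last letters of the RBPJ motif can be shared with the first of the TEAD motif, but no window of a member held both. The RBPJ letters were found in 2 of the 8 windows, those of HES1 and HES4, and in 6.25% of all 35116 RefSeq promoter windows. The AP-1, TEAD and ETS letters were in none of the 8 windows, and in 7.71%, 14% and 10.3% of all windows. The 250 bases before the gene start are printed for the 2 genes with a match, 5′ to 3′, with the RBPJ letters in capitals. Those of HES1 lie at chr3:194135898-194136147 on the plus strand, with its match starting 85 bases before the gene start, and those of HES4 at chr1:1000098-1000347 on the minus strand, with its match starting 77 bases before the gene start.
HES1: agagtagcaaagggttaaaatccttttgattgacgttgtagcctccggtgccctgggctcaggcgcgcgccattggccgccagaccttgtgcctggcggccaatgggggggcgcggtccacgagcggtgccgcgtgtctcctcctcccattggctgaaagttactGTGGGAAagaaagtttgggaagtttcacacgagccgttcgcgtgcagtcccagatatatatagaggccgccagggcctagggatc
HES4: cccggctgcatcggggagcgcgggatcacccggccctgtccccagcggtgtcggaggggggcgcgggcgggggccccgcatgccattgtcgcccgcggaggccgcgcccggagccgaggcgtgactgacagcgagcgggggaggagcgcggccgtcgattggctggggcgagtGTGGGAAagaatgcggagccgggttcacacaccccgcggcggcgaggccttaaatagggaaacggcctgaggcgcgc
A match is a string of letters and not a measured binding site. The searched window of HES4, which ends 50 bases past the gene start, overlapped an acetylated region of HES4 only past the gene start. That region ended at chr1:1000069, so the printed bases of HES4 and their match lay outside it. The window of HES1 fell in the gap between the regions upstream and downstream of the start site. Neither match lay in a member region.

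Across the 26 regions, H3K27ac fell at the distal region assigned to NOTCH3 in both drug-treated groups and at 1 distal region of NRARP in DTP + AZD5153, and it rose at 1 region inside NOTCH2 in DTP. No region of NOTCH1, JAG1, HES1, HES4 or HEY1 passed the test. Counts were tested with edgeR's quasi-likelihood test over all 157919 regions that passed the filter, with Benjamini-Hochberg adjustment and a threshold of 0.05. In DTP against DMSO, 1 member region rose and 1 fell, where 5.58% of all regions were called higher and 5.13% lower. In DTP + AZD5153 against DMSO, 0 rose and 2 fell, where 9.05% of all regions were called higher and 9.01% lower. Between the drug-treated groups, 0 member regions and 0 (0%) of all regions passed edgeR's test. At an unadjusted p under 0.05 there were 0 member regions and 7013 regions in all, and DESeq2 also called 0 member regions. In a fit of annotated regions alone, the member calls against DMSO were the same, where 16% of those regions were called in DTP and 24.5% in DTP + AZD5153. These few calls lie near the shares of all regions or below them, and below the shares of annotated regions.

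Groups that do not overlap were counted next, as a description. In DTP, 2 member regions had every CPM above those of DMSO and 6 had every CPM below, against 20.2% and 18.9% of all regions. For DTP + AZD5153 against DMSO the counts were 0 above and 5 below, against 14.4% and 19% of all regions. Against DTP they were 1 above and 1 below, against 2.83% and 5.4%. The median log2 fold change of the 26 regions was -0.17 in DTP against DMSO (0.15 over all regions tested), -0.08 in DTP + AZD5153 against DTP (0.06) and 0.12 in DTP + AZD5153 against DMSO (0.23). The comparisons share libraries, the 2 against DMSO their 3 DMSO libraries, so their values are not independent of each other.

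**Figure D1:**
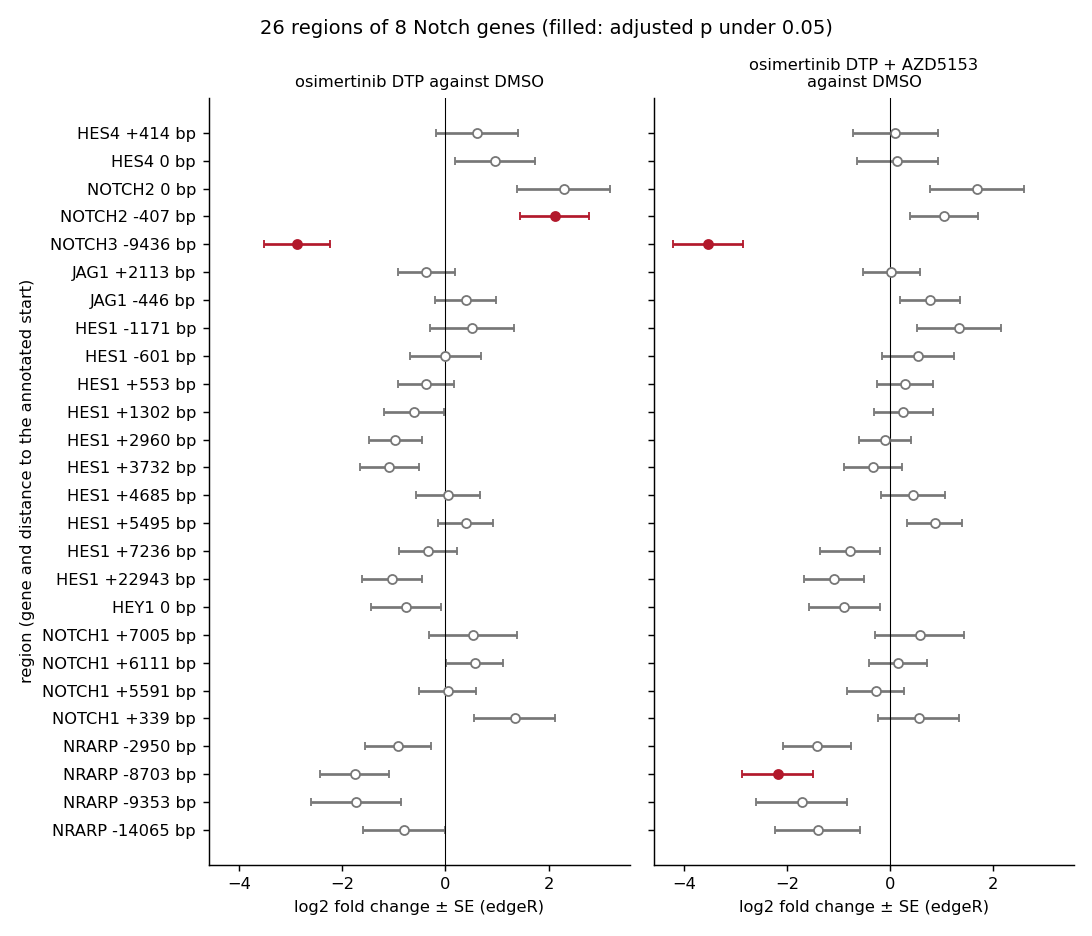
Log2 fold change from edgeR for the 26 regions, in DTP against DMSO (left) and DTP + AZD5153 against DMSO (right). Bars are the standard error derived from edgeR's F statistic. There are 3 libraries a group, and both comparisons share the DMSO libraries. Filled red points passed an adjusted p of 0.05: the NOTCH3 region lies at -2.87 and -3.54, the NOTCH2 region at 2.12 on the left, and the NRARP region at -8703 bp at -2.18 on the right.

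NOTCH3, a receptor that in lung tissue is tied to undifferentiated progenitor cells, had 1 annotated region, an intergenic one at chr19:15210431-15210932 (hg38), at -9436 bp from the start site. The CPM in DMSO were 6.8, 13.1 and 7.14 in replicates 1 to 3. In DTP they were 0.765, 1.53 and 1.41, and in DTP + AZD5153 they were 1.1, 0.233 and 0.966. Every drug-treated library was below every DMSO library. The mean was 9.02 ± 3.55 CPM (SD, n = 3) in DMSO, 1.24 ± 0.412 in DTP and 0.767 ± 0.468 in DTP + AZD5153, beside 9 counts in the input library.

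The NOTCH3 region fell by 2.87 on the log2 scale (SE 0.64, edgeR adjusted p = 0.011) in DTP against DMSO, or 7.29-fold. It fell by 3.54 (SE 0.68, adjusted p = 0.00303) in DTP + AZD5153 against DMSO, or 11.7-fold. Between the drug-treated groups the log2 fold change was -0.68 (SE 0.68, adjusted p = 1). In DTP the call was lost without DMSO replicate 2 (adjusted p = 0.0928) and without DTP replicate 1, 2 or 3 (adjusted p = 0.0624, 0.0509 and 0.0599), in a range from 7.57e-05 to 0.0928 over all alternatives. In DTP + AZD5153 against DMSO the call was kept in all alternatives run, with adjusted p from 1.14e-05 to 0.0279.

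Peaks, the stretches enriched over background, had been called by the authors in each library apart. Over the NOTCH3 region lay a peak in all 3 DMSO libraries, with a −log10 q of 23.2, 84.9 and 35.7, and in none of the 6 drug-treated libraries. Of all annotated regions, 5.86% had a peak in all DMSO libraries and in none of the drug-treated ones, and 2 of the 26 member regions did, the other being the NRARP region at -8703 bp. The neighbouring region at chr19:15209870-15210371, which the count table lists without a gene, had 2, 3.1 and 3.22 CPM in DMSO and between 0.233 and 0.773 CPM in the 6 drug-treated libraries. It fell by 2.87 (SE 0.79, edgeR adjusted p = 0.0283) and fell by 2.72 (SE 0.80, adjusted p = 0.0261) against DMSO. At the start of NOTCH3 itself, the unannotated region centred 357 bp inside the gene had a mean of 1.66 ± 0.583 CPM (SD, n = 3) in DMSO, 2.44 ± 1.55 in DTP and 1.24 ± 1.95 in DTP + AZD5153, with overlapping groups and adjusted p of 0.792 and 0.756 against DMSO.

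**Figure D2:**
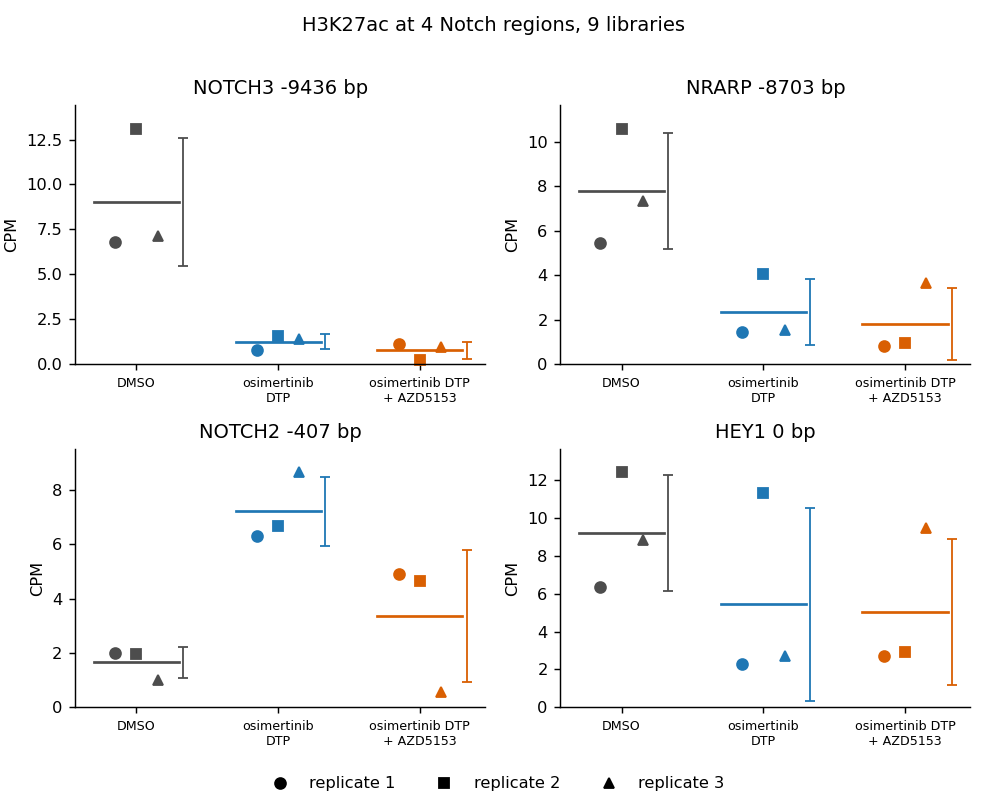
CPM in each of the 9 libraries at the NOTCH3, NRARP and NOTCH2 regions that passed the test and at the HEY1 promoter region. Marks are libraries by replicate number, horizontal lines the means of 3 and vertical bars 1 SD: NOTCH3 and NRARP are lower in all 6 drug-treated libraries than in DMSO, NOTCH2 is at 6.31 CPM or above in DTP and at 2 CPM or below in DMSO, and HEY1 overlaps between groups.

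NRARP, a small ankyrin repeat protein that Notch induces and that restrains it, had 4 annotated regions on chromosome 9, all upstream of its start site. The nearest, at chr9:137305221-137305722, lay at -2950 bp. The other 3, at -8703, -9353 and -14065 bp, lay in intron 13 of 14 of a transcript of the neighbouring gene EXD3, so that their assignment to NRARP rests on distance alone. At -8703 bp (chr9:137310974-137311475) the CPM in DMSO were 5.44, 10.6 and 7.34. In DTP they were 1.43, 4.04 and 1.51, and in DTP + AZD5153 they were 0.802, 0.931 and 3.67. All 6 drug-treated libraries were below all DMSO libraries, and the highest in each drug-treated group was its promoter-rich library.

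The -8703 bp region fell by 2.18 (SE 0.69, edgeR adjusted p = 0.0368) in DTP + AZD5153 against DMSO, or 4.52-fold. In DTP its log2 fold change was -1.76 (SE 0.67, adjusted p = 0.0986), and between the drug-treated groups -0.42 (SE 0.69, adjusted p = 1). The fall in DTP was called with DESeq2 (-1.89, adjusted p = 0.0391), with only the compared libraries (-1.72, 0.00861), with voom (-2.10, 0.00048) and without DTP + AZD5153 replicate 3 (-1.77, 0.00856). The call in DTP + AZD5153 was lost under a loess offset (adjusted p = 0.0952), with TMM scaling within annotation class (0.109) and in a fit of the compared libraries only (0.0722). It was lost, with adjusted p from 0.0527 to 0.151, without any 1 of the 3 DMSO libraries, without DTP replicate 1 or 3, or without DTP + AZD5153 replicate 1 or 2. It was kept without DTP replicate 2 (0.0425) and without DTP + AZD5153 replicate 3 (0.000517). Over all alternatives the adjusted p ran from 2.81e-05 to 0.151.

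The other 3 NRARP regions did not pass the test in either comparison with DMSO, and their values were of the same kind. At -9353 bp the CPM were 6.08, 6.3 and 6.54 in DMSO, 1.05, 4.45 and 0.302 in DTP, and 0.601, 0.465 and 5.03 in DTP + AZD5153. At -14065 bp they were 4.35, 5.27 and 4.43 in DMSO, 1.53, 6.4 and 0.302 in DTP, and 1, 0.814 and 3.67 in DTP + AZD5153. At -2950 bp they were 13.8, 15.9 and 10.1 in DMSO, 6.12, 12.8 and 2.11 in DTP, and 3.31, 3.02 and 8.7 in DTP + AZD5153. In each region the promoter-rich library was the highest of its group, and in DTP + AZD5153 all 3 libraries were below all DMSO libraries. In DTP, replicate 2 lay among or above the DMSO libraries at -2950 and -14065 bp, and all 3 libraries lay below them at -9353 bp.

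With both promoter-rich libraries left out, an alternative chosen after the values were seen, all 4 NRARP regions passed edgeR's test in both comparisons with DMSO. Calls rose over the whole table there too, to 26.9% of all regions in DTP and 42.6% in DTP + AZD5153, from 10.7% and 18.1% with all libraries. Their log2 fold changes were then -1.65, -2.37, -3.15 and -2.29 in DTP (adjusted p from 0.000163 to 0.00777), from the nearest region to the farthest, and -1.99, -3.08, -3.45 and -2.27 in DTP + AZD5153 (adjusted p from 4.32e-05 to 0.003). Summed over the 4 regions, with CPM taken over the counts of annotated regions alone, NRARP had 44.1 ± 0.685 CPM (SD, n = 3) in DMSO, 15.3 ± 8.13 in DTP and 11.7 ± 7.85 in DTP + AZD5153. At the start of NRARP, the unannotated region centred at -351 bp had 1.79 ± 0.252 CPM in DMSO, 1.19 ± 1.38 in DTP and 1.22 ± 1.3 in DTP + AZD5153, with adjusted p of 0.725 and 0.68 against DMSO.

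Regions were also summed per gene in 2 classes, promoters within 1 kb and all others, and 11 such sums of the members were tested among 21677. In DTP against DMSO, 1 sum fell, that of NOTCH3 outside promoters, by 2.91 (SE 0.55, edgeR adjusted p = 0.0158), where 5.06% of all sums were called lower. With the replicate number as a block this call was lost (adjusted p = 0.0544), and it was also lost without DMSO replicate 2 or 3 or any DTP replicate (adjusted p from 0.0501 to 0.083). Against DMSO, 2 sums fell in DTP + AZD5153, where 8.88% of all sums were called lower. NOTCH3 fell by 3.70 (SE 0.59, adjusted p = 0.00522) and NRARP outside promoters fell by 1.92 (SE 0.53, adjusted p = 0.0375). The NRARP call was lost with TMM within annotation class (0.351) and with the replicate number as a block (0.0962). It was also lost without any DMSO replicate, DTP replicate 1, or DTP + AZD5153 replicate 1 or 2 (0.0581 to 0.116). With all libraries no sum rose, and none of the sums, members' or other (0%), was called between the drug-treated groups. Without both promoter-rich libraries, the promoter sums of HES1, HEY1 and NOTCH2 and the NRARP sum also passed in DTP (edgeR adjusted p from 0.00409 to 0.0412). In DTP + AZD5153 the promoter sums of HES4, HEY1, NOTCH1 and NOTCH2 and the NOTCH1 sum outside promoters also passed (0.00324 to 0.0278). NOTCH2 rose and the others fell. The share of all sums called there is not reported here.

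NOTCH2, a receptor widely made in epithelia, had 2 adjacent regions at chr1:119986788-119987289 and chr1:119987457-119987958. Both were annotated as promoter because they lie at 0 and -407 bp from the start of a short transcript (ENST00000640021.1), but their centres sit 82624 and 81954 bp inside the RefSeq gene and not at its own start. At -407 bp the CPM in DMSO were 2, 1.96 and 1.01. In DTP they were 6.31, 6.68 and 8.66, and in DTP + AZD5153 they were 4.91, 4.65 and 0.58. All DTP libraries were above all DMSO libraries, while DTP + AZD5153 replicate 3 was below them. All 3 DTP + AZD5153 libraries lay below DTP, where the log2 fold change was -1.06 (SE 0.64, edgeR adjusted p = 1).

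The -407 bp region of NOTCH2 rose by 2.12 (SE 0.67, edgeR adjusted p = 0.0496) in DTP against DMSO, or 4.33-fold. With the replicate number as a block, the call was lost (adjusted p = 0.0511). It was also lost without TMM (0.0813), with TMM within annotation class (0.0937), without any 1 of the 6 libraries compared (0.0842 to 0.232) and without DTP + AZD5153 replicate 1 (0.0526), in a range from 0.000175 to 0.232 over all alternatives. In DTP + AZD5153 the log2 fold change was 1.05 against DMSO (SE 0.66, adjusted p = 0.292) and 1.52 (adjusted p = 0.0184) without DTP + AZD5153 replicate 3. The region at the transcript start had 2.09, 0.516 and 0.302 CPM in DMSO, 6.5, 3.34 and 4.63 in DTP, and 5.31, 3.96 and 0 in DTP + AZD5153, where the count of 0 allows up to 3 counts, or 0.58 CPM (counting error only). Its log2 fold change in DTP was 2.29 (SE 0.91, adjusted p = 0.116), and it was called with only the compared libraries (2.33, adjusted p = 0.00307), with voom (3.05, 0.00094), without DTP + AZD5153 replicate 3 (2.28, 0.00462) and without both promoter-rich libraries (2.51, 0.00148). In DTP + AZD5153 against DMSO it was 1.68 (SE 0.91, adjusted p = 0.215). This region was called there with voom (2.72, 0.00164), without DTP + AZD5153 replicate 3 (2.21, 0.00737) and without both promoter-rich libraries (2.29, 0.00207).

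A peak lay over both NOTCH2 regions in all 3 DTP libraries, in replicates 1 and 2 of DTP + AZD5153, and in no DMSO library. Of all annotated regions, 8.79% had a peak in no DMSO library and in all DTP libraries, and 2 of the 26 member regions did. The NOTCH2NL genes are near-identical partial copies of NOTCH2. Whether these regions lie in the copied part was not checked, and the handling of reads that map to several places is not given in the sources used here, so the NOTCH2 values are uncertain.

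**Figure D3:**
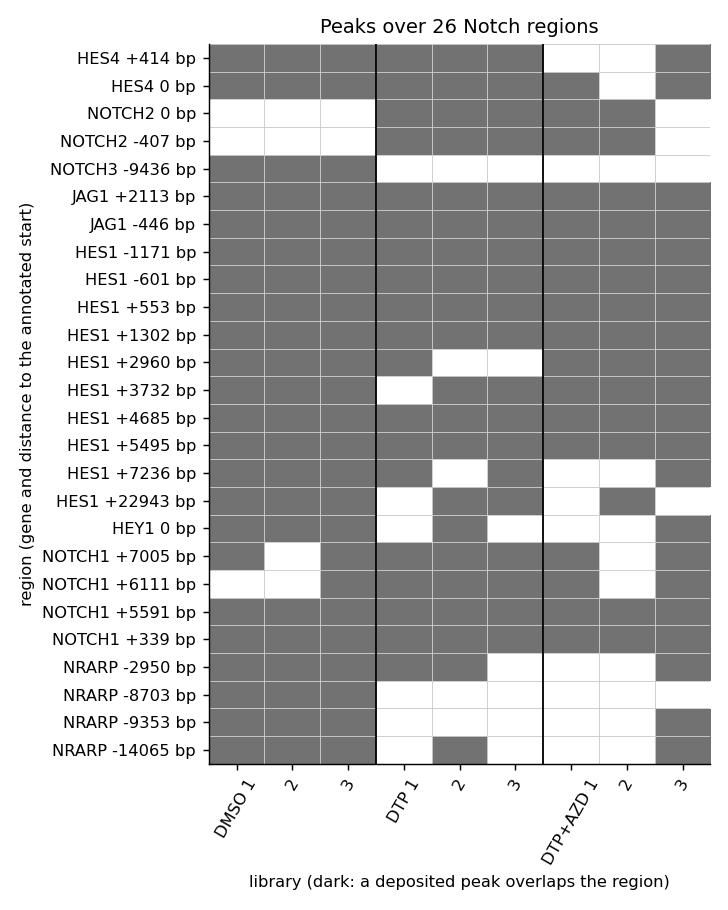
Presence of a deposited peak (dark) over each of the 26 regions (rows) in each of the 9 libraries (columns: DMSO, DTP and DTP + AZD5153). The NOTCH3 region and the NRARP region at -8703 bp have peaks in DMSO libraries alone, and the NOTCH2 regions have none in DMSO.

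NOTCH1, the receptor with the most regions, had 1 at its promoter and 3 in intron 2 of 33. At the promoter region (chr9:136545208-136545709, 339 bp inside the gene) the CPM in DMSO were 7.16, 5.47 and 5.33. In DTP they were 9.94, 30.1 and 5.64, and in DTP + AZD5153 they were 2.91, 2.09 and 21.8. The 2 highest values belonged to the promoter-rich libraries, and the groups overlapped. The log2 fold change was 1.34 (SE 0.79, edgeR adjusted p = 0.313) in DTP and 0.55 (SE 0.79, adjusted p = 0.682) in DTP + AZD5153 against DMSO. Without both promoter-rich libraries the former was 0.41 (adjusted p = 0.526) and the latter turned to -1.18 (adjusted p = 0.0414), so neither the direction nor the call of the latter was stable. Without DTP + AZD5153 replicate 3 alone, the value in DTP was 1.33 (adjusted p = 0.0498), and with only the compared libraries 1.37 (adjusted p = 0.039).

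The most acetylated NOTCH1 intron region (chr9:136539956-136540457) had 17.3 ± 1.72 CPM (SD, n = 3) in DMSO, 17.8 ± 7.76 in DTP and 14.3 ± 8.39 in DTP + AZD5153. Its adjusted p were 0.979 and 0.778 against DMSO, and a peak lay over it in all 9 libraries. The other intron regions, 6111 and 7005 bp from the start site, had log2 fold changes from 0.15 to 0.57 against DMSO, none of which passed the test. At 7005 bp the CPM were 3.9, 0.929 and 7.34 in DMSO and 1.8, 0.931 and 15.8 in DTP + AZD5153, where the promoter-rich library was the highest. With voom the log2 fold change between these groups was -1.49 (adjusted p = 0.0349), so its direction was not stable.

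JAG1, the ligand mutated in Alagille syndrome, had the most acetylated region of all members, at chr20:10674445-10674946, at -446 bp from its start site. The CPM were 40.2, 52.2 and 37.6 in DMSO, 34.7, 106 and 28.7 in DTP, and 41.9, 47.1 and 133 in DTP + AZD5153. The highest library of each drug-treated group was again the promoter-rich one, and the rest lay between 28.7 and 52.2 CPM. Against DMSO the log2 fold change was 0.39 (SE 0.59, edgeR adjusted p = 0.751) in DTP, which became -0.42 (adjusted p = 0.298) without the promoter-rich libraries, and 0.77 (SE 0.59, adjusted p = 0.401) in DTP + AZD5153, which became 0.12 (adjusted p = 0.758). The second JAG1 region, 2113 bp inside the gene, had 13.2 ± 0.942 CPM (SD, n = 3) in DMSO, 10.3 ± 4.83 in DTP and 13.5 ± 6.31 in DTP + AZD5153, with adjusted p of 0.748 and 0.984. Both JAG1 regions had a peak in all 9 libraries.

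JAG2, the other ligand, had no annotated region. The full count table held 13 tested regions within 10000 bp of the gene, and none passed edgeR's test in either comparison with DMSO (adjusted p from 0.619 to 0.993 and from 0.521 to 0.94). The strongest, centred 772 bp inside the gene at chr14:105167754-105168255, had 2.9, 5.37 and 6.34 CPM in DMSO, 3.06, 10.4 and 3.12 in DTP, and 1.7, 2.56 and 6.76 in DTP + AZD5153. All 3 groups overlapped there, at levels well under those of JAG1 (regions of equal width).

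**Figure D4:**
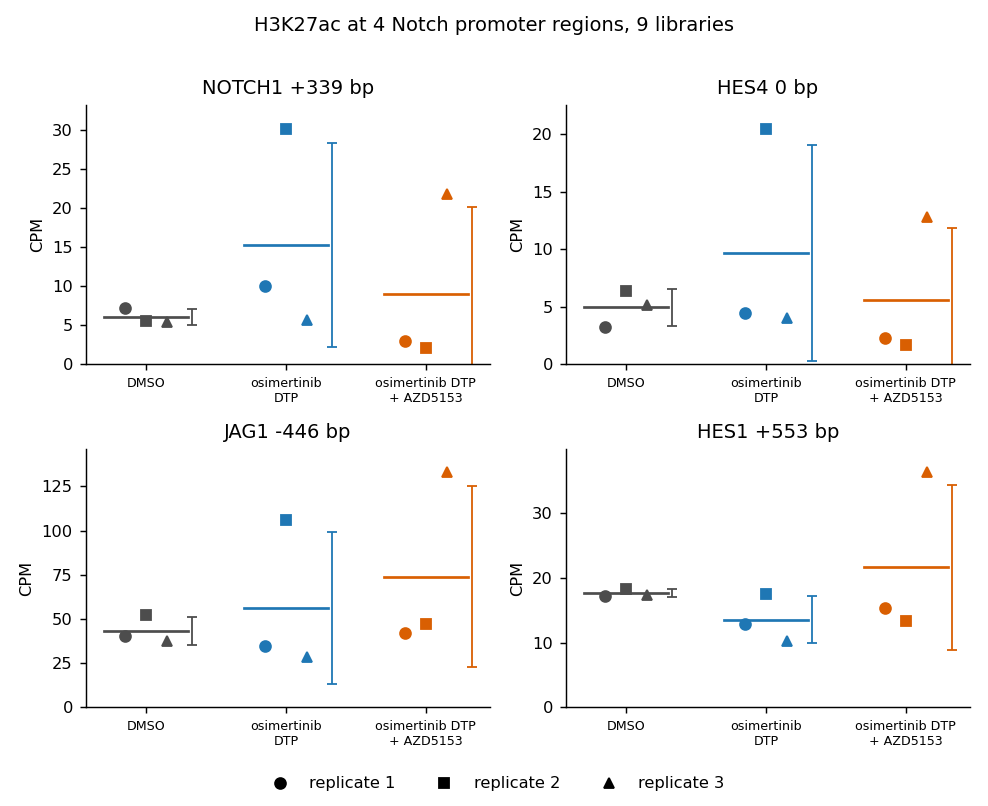
CPM in each of the 9 libraries at the strongest promoter region of NOTCH1, HES4, JAG1 and HES1. Marks are libraries by replicate number, horizontal lines the means of 3 and vertical bars 1 SD, cut off at 0. In each panel replicate 2 of DTP and replicate 3 of DTP + AZD5153 are the highest of their groups, with 30.1 and 21.8 CPM at NOTCH1.

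HES1, the best known transcriptional repressor among Notch targets, had 10 regions from -1171 bp to 22943 bp from its start site, with 9 to 501 counts per library. None passed edgeR's test in any comparison (adjusted p of at least 0.241, 1 and 0.215 in DTP against DMSO, in DTP + AZD5153 against DTP, and in DTP + AZD5153 against DMSO). Without both promoter-rich libraries, 1 passed it, the region at 1302 bp, which then fell by 1.19 in DTP against DMSO (adjusted p = 0.0146). The highest signal lay downstream of the gene. At 5495 bp (chr3:194141643-194142144) the CPM were 22.5, 40.7 and 29.5 in DMSO, 25.8, 69.7 and 25.7 in DTP, and 36, 50.3 and 82.1 in DTP + AZD5153. The groups overlapped, with log2 fold changes of 0.39 (SE 0.54, adjusted p = 0.725) and 0.86 (SE 0.54, adjusted p = 0.297) against DMSO, or -0.24 (adjusted p = 0.621) and 0.56 (adjusted p = 0.132) without both promoter-rich libraries.

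At the promoter of HES1 (chr3:194136701-194137202, 553 bp downstream of the start site) the CPM were 17.2, 18.3 and 17.3 in DMSO, 12.9, 17.5 and 10.3 in DTP, and 15.3, 13.3 and 36.3 in DTP + AZD5153. The log2 fold change was -0.38 (SE 0.54, edgeR adjusted p = 0.731) in DTP and 0.29 (SE 0.54, adjusted p = 0.757) in DTP + AZD5153, which became -0.58 (adjusted p = 0.236) and -0.23 (adjusted p = 0.616) without both promoter-rich libraries. In DTP, 6 of the 10 HES1 regions had a log2 fold change below 0. The regions at 2960, 3732 and 22943 bp had every DTP library below every DMSO library. At 2960 bp the CPM were 6.08, 6.61 and 6.54 in DMSO, 4.02, 2.64 and 3.12 in DTP, and 5.71, 5.47 and 6.76 in DTP + AZD5153, the 1 member region whose DTP + AZD5153 libraries all lay above DTP. Of the 10 regions, 6 had a peak in all 9 libraries.

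**Figure D5:**
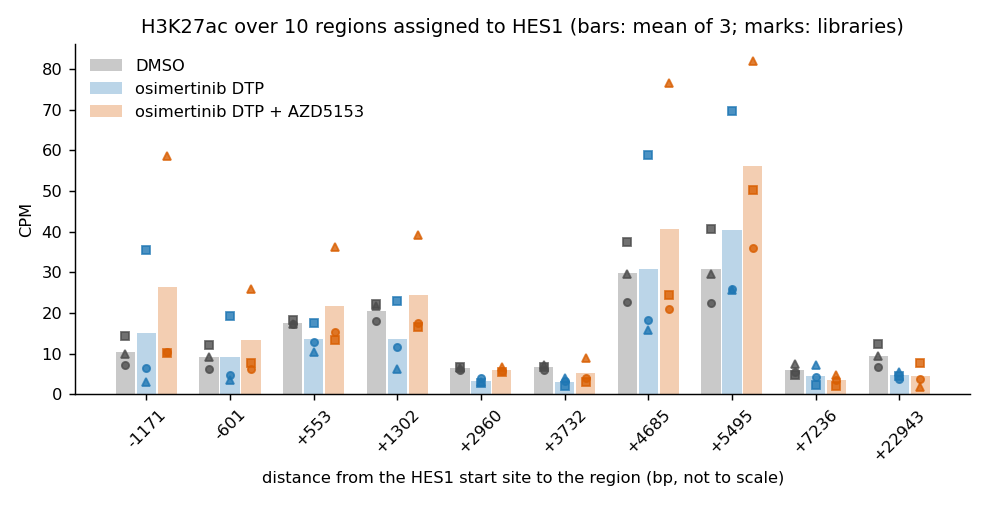
CPM over the 10 regions assigned to HES1, ordered by distance from its start site (bp, not to scale). Bars are means of 3 libraries and marks single libraries: signal is highest at 4685 and 5495 bp, where the highest mark of each drug-treated group belongs to its promoter-rich library.

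HES4, a related repressor, had 2 adjacent promoter regions, the stronger at chr1:999568-1000069, which reaches into the window searched for motifs but not to its RBPJ match. Its CPM were 3.26, 6.4 and 5.13 in DMSO, 4.4, 20.5 and 4.03 in DTP, and 2.3, 1.63 and 12.8 in DTP + AZD5153. The promoter-rich library stood far above the others of each drug-treated group. Log2 fold changes against DMSO were 0.96 (SE 0.77, edgeR adjusted p = 0.486) and 0.14 (SE 0.78, adjusted p = 0.926), and without the promoter-rich libraries they turned to -0.20 (adjusted p = 0.798) and -1.24 (adjusted p = 0.0434). The second region, 414 bp inside the gene, had 3.53 ± 1.33 CPM (SD, n = 3) in DMSO, 5.42 ± 3.81 in DTP and 3.91 ± 5.01 in DTP + AZD5153. Its log2 fold change in DTP + AZD5153 went from 0.10 (adjusted p = 0.953) to -1.74 (adjusted p = 0.0442) without replicate 3 of that group and to -1.67 (adjusted p = 0.0221) without both promoter-rich libraries.

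HEY1, a repressor known from the development of vessels, had 1 region over its start site at chr8:79767372-79767873. The CPM were 6.35, 12.4 and 8.85 in DMSO, 2.29, 11.3 and 2.72 in DTP, and 2.71, 2.91 and 9.47 in DTP + AZD5153. In each drug-treated group the 2 other libraries lay below all DMSO libraries and the promoter-rich one among them. This overlap depended on the scaling. Over the counts of annotated regions alone, the same counts gave 9.6, 14.3 and 13.6 CPM in DMSO. They gave 3.53, 9.49 and 4.55 in DTP and 3.67, 3.65 and 9.31 in DTP + AZD5153, all below DMSO (edgeR adjusted p of the sum 0.257 and 0.168). In the fit of all regions, log2 fold changes were -0.77 (SE 0.68, edgeR adjusted p = 0.533) and -0.89 (SE 0.69, adjusted p = 0.404) against DMSO. With TMM within annotation class the latter was -1.41 (adjusted p = 0.0355). Without both promoter-rich libraries they were -1.85 (adjusted p = 0.00375) and -1.63 (adjusted p = 0.00577), and the adjusted p ranged from 0.00375 to 0.864 and from 0.00358 to 0.693 over all alternatives. What the promoter share of these libraries contributes to the values of the promoter regions was not tested.

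A peak lay over 23 ± 1 of the 26 member regions (SD, n = 3 libraries) in DMSO, 19.7 ± 1.15 in DTP and 17.7 ± 3.06 in DTP + AZD5153. The libraries ranged from 22 to 24, from 19 to 21 and from 15 to 21, so that DMSO was above both drug-treated groups and these overlapped. This separation depended on counting every peak with at least 1 base of overlap. At a −log10 q of at least 10, DMSO libraries had 12, 20 and 21 regions with a peak. DTP libraries then had 14, 18 and 13, and DTP + AZD5153 libraries 13, 13 and 18, so all groups overlapped. A stricter rule on overlap also ended the separation. Much of the difference with 1 base of overlap lay at NRARP, whose 4 regions all had a peak in 3 DMSO libraries. From the nearest to the farthest they had it in 2, 0, 0 and 1 DTP libraries and in 1, 0, 1 and 1 of DTP + AZD5153. Only the 2 NOTCH2 regions and the NOTCH1 regions at 6111 and 7005 bp had peaks in more DTP than DMSO libraries. Over all 67387 annotated regions the share with a peak was 81.2% to 85.0% in DMSO, 84.1% to 84.9% in DTP, and 83.2%, 81.8% and 64.1% in DTP + AZD5153. The members' share was 84.6% to 92.3%, 73.1% to 80.8%, and 65.4%, 57.7% and 80.8%.

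Other genes of the pathway were read from the same fit, from a list of 54 genes of which 37 had 178 regions. In DTP against DMSO 4 of these regions rose and 5 fell (2.25% and 2.81%, beside 5.58% and 5.13% of all regions), and 0 changed between the drug-treated groups. For DTP + AZD5153 against DMSO 15 rose and 10 fell (8.43% and 5.62%, beside 9.05% and 9.01%), so that the list's shares lay below those of all regions. The medians of its log2 fold changes were 0.4, 0.11 and 0.48, beside 0.15, 0.06 and 0.23 over all regions. RBPJ, the DNA-binding partner of the receptors, had the called region of smallest p in the nuclear complex, which lay in an intron. This region, at -87095 bp from the assigned start site (chr4:26075859-26076360), fell by 3.63 (SE 0.65, edgeR adjusted p = 0.00444) and fell by 5.36 (SE 0.75, adjusted p = 0.00114) against DMSO, from 12 ± 4.42 CPM (SD, n = 3) to 0.95 ± 0.231 and 0.25 ± 0.218. In DTP + AZD5153, 4 other RBPJ regions rose. MAML2, a coactivator in the same complex, had 3 regions that rose and 0 that fell in DTP + AZD5153.

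Among genes upstream of the receptors, a distal region of ADAM17, a protease that cuts Notch at the cell surface, rose by 2.28 (SE 0.62, edgeR adjusted p = 0.0261) and by 2.79 (SE 0.63, adjusted p = 0.00677) against DMSO. The promoter of LFNG, a glycosyltransferase that tunes which ligands a receptor answers, rose by 2.07 (SE 0.61, adjusted p = 0.0375) and by 1.95 (SE 0.61, adjusted p = 0.0337), from 2.07 ± 0.408 CPM (SD, n = 3) to 8.75 ± 4.63 and 8.13 ± 4.67. Every drug-treated library was above every DMSO library there, and the highest of each group was its promoter-rich one, at 14.1 and 13.3 CPM. Values of the pathway list under the alternatives are not reported here. Both regions of DLK1, a ligand-like inhibitor, fell in each comparison with DMSO, one of them by 1.88 (SE 0.55, adjusted p = 0.0375) in DTP and the other fell by 2.59 (SE 0.70, adjusted p = 0.018) in DTP + AZD5153. A region at -1234 bp of ITCH, a ubiquitin ligase that targets Notch, fell by 2.72 (SE 0.64, adjusted p = 0.0133) and fell by 3.06 (SE 0.66, adjusted p = 0.00537). In DTP + AZD5153, a region 1188 bp inside HES2, the one other HES or HEY gene with regions, fell by 2.14 (SE 0.56, adjusted p = 0.0142).

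For the 5 members with regions outside promoters, the gene whose summed signal outside promoters followed theirs most closely over the 9 libraries was sought among 9377 genes. By Pearson's r of log2 CPM it was WNT9A for NRARP (0.987), LOC102724050 for NOTCH3 (0.981), LINC02606 for HES1 (0.966), KLF16 for NOTCH1 (0.963) and LBHD2 for JAG1 (0.905). These values describe the same 9 libraries, which share depth and promoter share within a library, and were the highest of many.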

How the data were processed

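H3K27ac was measured by ChIP-seq (75 nt reads) in 9 H1975 libraries of 3 groups of 3, beside a pooled input. The authors deposited raw read counts over regions of 502 bp (hg38), for all regions and for a filtered set annotated to genes, and per-library peak lists whose score, fold (ratio) over background and −log10 q are as deposited. Per the labels' processing notes BWA 0.7.17, MACS2 2.2.6, featureCounts 2.0.0 and ChIPseeker 1.29.1 were named without roles, and the handling of duplicates and multi-mapped reads is not given in the sources used here. No region holds over 1148 counts, under the 1152 that 1 read per position and strand would allow, so strong regions may be compressed.

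Counts were fitted in R 4.3.3 with edgeR 4.0.16 (quasi-likelihood, filterByExpr at 10 counts, TMM, all 9 libraries, Benjamini-Hochberg, adjusted p under 0.05). The fit was also run on counts simulated from a mean profile common to all libraries, with a set of regions changed. These counts held no promoter-rich libraries, so they do not show the error rate of the fit with such libraries. DESeq2 1.42.0 and limma 3.58.1 (voom) served as alternatives. The SE beside edgeR's log2 fold changes was derived, as the absolute log2 fold change divided by the square root of the F statistic. CPM were computed by edgeR from TMM-scaled library sizes. A peak counted when it covered at least 1 base of a region. Samples were grouped by their labels, and p-values measure the spread between these libraries. Replicate numbers are shared by the groups. Deviations of same-numbered DTP and DMSO libraries correlated at r = 0.334, 0.355 and 0.324, so the block is given there. Those of DTP + AZD5153 correlated at -0.0183, 0.553 and 0.362 with DMSO and at 0.243, 0.0262 and -0.24 with DTP. Members and gene lists were chosen with earlier results of these data known. Named for each member were its strongest promoter region, its strongest other region and up to 2 called regions per comparison and direction, for each role of the pathway list the called region with the smallest p (that of 1 role is not reported here), and for each member the 1 gene most like it. Promoter sequences came from RefSeq.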

Additional observations from a re-analysis of the deposited data

How the results depend on the processing

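With the replicate number as a block, 1 member region was called in DTP against DMSO in place of 2, since NOTCH2 at -407 bp was lost (log2 fold change 2.27), and the NOTCH3 sum was also lost (-2.96). No other call of that comparison changed. In DTP + AZD5153 against DMSO, same-numbered libraries correlated in replicates 2 and 3 (r = 0.553 and 0.362) but not in replicate 1 (-0.0183). The block left 2 regions called there (17.5% of all regions), and the NRARP sum was lost (-1.96, edgeR adjusted p = 0.0962).
Member regions called in DTP against DMSO (2 as reported) numbered 1 with library sizes in place of TMM (7.71% of all regions called). With TMM within annotation class they numbered 1 (21.6% of annotated regions). They numbered 6 with only the compared libraries (26.4% of all regions), 9 with voom and library quality weights in limma (31.9%) and 0 at an adjusted p under 0.01. In DTP + AZD5153 against DMSO (2 as reported) they numbered 1 with a loess offset (19.8% of all regions), with only the compared libraries (11.4%) or at an adjusted p under 0.01, and 12 with voom (48.7%). Between the drug-treated groups voom called 1, NOTCH1 at 339 bp, where it called 3.67% of all regions, and 1 sum. Shares of all sums called under the alternatives are not reported here. Without both promoter-rich libraries, chosen after seeing the data, the counts against DMSO were 9 (2 higher, 7 lower) and 11 (2 higher, 9 lower), where 26.9% and 42.6% of all regions were called. Leaving out 1 library gave 0 to 6 in DTP and 1 to 9 in DTP + AZD5153 against DMSO, with 6 and 9 without DTP + AZD5153 replicate 3 (26.8% and 35.7% of all regions), and 0 between the drug-treated groups. Gene sums called against DMSO (1 and 2 as reported) were 2 with DESeq2 and 3 with only the compared libraries in DTP, 0 and 1 with the block or at an adjusted p under 0.01, 7 and 7 with voom, 5 and 7 without both promoter-rich libraries, and 0 to 3 and 1 to 6 with 1 library left out. Regions with a peak averaged 17.7 in DMSO and 15.0 in DTP for a −log10 q of at least 10, 21.7 and 18.3 where a peak had to cover 50% of a region, and 22.5 to 23.5, 19 to 20 and 16 to 19 in the 3 groups with 1 library left out. Under both stricter peak rules the DMSO libraries no longer all lay above the drug-treated ones. With the 50% rule DMSO libraries had 21, 20 and 24, DTP libraries 18, 20 and 17, and DTP + AZD5153 libraries 16, 14 and 21.
Each named value was counted once under each alternative, so that 1 value counts many times. Of these results, 712 kept their direction and side of the threshold, 38 were no longer called, 27 became called and 55 changed sign, the last all of values not called as reported. Without both promoter-rich libraries the sign changed against DMSO in DTP at NOTCH1 5591 bp (-0.35), JAG1 -446 bp (-0.42), HES1 5495 bp (-0.24) and HES4 (-0.20), in DTP + AZD5153 at NOTCH1 339 bp (-1.18), JAG1 2113 bp (-0.28), HES1 553 bp (-0.23) and HES4 (-1.24), and between the drug-treated groups at HEY1 (0.21). With voom it changed at NOTCH1 5591 bp (-0.23) and JAG1 -446 bp (-0.14) in DTP, and at NOTCH1 339 bp (-1.04), JAG1 2113 bp (-0.17), HES1 553 bp (-0.20) and HES4 (-1.07) in DTP + AZD5153. With TMM within annotation class it changed at JAG1 -446 bp (-0.02) in DTP, at NOTCH1 339 bp (-0.20), NOTCH1 5591 bp (0.20), HES1 553 bp (-0.20) and HES4 (-0.51) in DTP + AZD5153, and at NOTCH1 5591 bp (0.03) and the NRARP sum (0.06) between the drug-treated groups. NOTCH1 5591 bp in DTP also turned with DESeq2 (-0.08), library sizes (-0.11), a loess offset (-0.14) and annotated regions alone (-0.04), JAG1 -446 bp with the loess offset (-0.12), JAG1 2113 bp and HES4 in DTP + AZD5153 with library sizes (-0.22 and -0.13), and HEY1 between the drug-treated groups with the loess offset (0.26), annotated regions alone (0.05) and the replicate block (0.06). With 1 library left out, log2 fold changes that turned ranged in DTP against DMSO from -0.32 to 0.30 (NOTCH1 5591 bp), -0.39 to 0.79 (JAG1 -446 bp), -0.20 to 0.72 (HES1 5495 bp) and -0.17 to 1.42 (HES4). In DTP + AZD5153 against DMSO they ranged from -1.26 to 1.00 (NOTCH1 339 bp), -0.35 to 0.32 (JAG1 2113 bp), -0.31 to 0.53 (HES1 553 bp) and -1.32 to 0.55 (HES4). Between the drug-treated groups they ranged from -2.59 to 0.14 (NOTCH1 339 bp), -0.91 to 0.07 (NOTCH1 5591 bp), -0.35 to 1.19 (JAG1 -446 bp), -2.27 to 0.33 (HES4), -0.93 to 0.94 (HEY1), -1.13 to 0.23 (NRARP -2950 bp), -1.39 to 0.19 (NRARP -8703 bp) and -1.04 to 0.02 (NRARP sum). The cause was not tested.
Low depth in DTP + AZD5153 replicate 3, and its lower correlation with its group, limit every comparison with that group. Since all 9 libraries share 1 estimate of the spread, this library also enters the test of DTP against DMSO. Without it, 26.8% of all regions were called there in place of 10.7%, and 6 member regions in place of 2. The log2 fold change of NOTCH2 at -407 bp was then 2.11 in place of 2.12, with an edgeR adjusted p of 0.00128 in place of 0.0496.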

Other observations

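Of 2 regions upstream of HEY1 annotated to LINC01607, that at chr8:79769835-79770336 fell by 2.35 (SE 0.74, edgeR adjusted p = 0.0489) in DTP and fell by 2.5 (SE 0.76, adjusted p = 0.0303) in DTP + AZD5153 against DMSO, while the nearer one at chr8:79768437-79768938 had log2 fold changes of -0.78 (adjusted p = 0.55) and -1.33 (adjusted p = 0.226). They were chosen after the HEY1 values were seen. The pooled input library held 2 to 24 counts over the member regions, with a median of 13.5, and none was at 0. Each library's peak list matched its own count column better than any other library's, with Spearman correlations of 0.762 to 0.925 over regions.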
